A study of Mus musculus with 6 samples.

Results

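The proteasome is the protease complex that degrades ubiquitin-tagged proteins, and the peptides it releases are the main supply for MHC class I molecules. Its core particle has a catalytic subunit of each of the beta1, beta2 and beta5 types. In most cells these are the constitutive subunits Psmb6 (beta1, caspase-like cleavage), Psmb7 (beta2, trypsin-like cleavage) and Psmb5 (beta5, chymotrypsin-like cleavage). Interferon-gamma induces their counterparts Psmb9, Psmb10 and Psmb8, which replace them in newly built particles and form the immunoproteasome, and it also induces Psme1 and Psme2, the paired subunits of an activator cap that binds the ends of the core. Psme3 forms a related nuclear cap and Psme4 is a large single-chain activator. The members described here are these 10 genes, taken through the probe sets annotated to exactly 1 of their symbols. That gave 13 probe sets for 9 genes, of 22690 probe sets on the array and of 12393 genes that have such a probe set. Psme2 was left without a probe set under this rule and was not analysed here.

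Expression was measured on Affymetrix arrays in 6 tumours, 1 array each, grown from 4T1 cells, a mouse mammary carcinoma line. There were 3 control tumours and 3 tumours from cells with knockdown (KD) of Bptf by short hairpin RNAs carried by the retrovirus MMLV. Bptf is a subunit of the NURF chromatin remodelling complex. Both kinds of cell, 10000 per injection, were grown for 21 days in the fourth mammary fat pad of mice given in the labels as Ifrg2r -/- (NSG), a host without mature T, B or natural killer cells, and RNA came from whole tumour pieces freed of any necrotic part. The symbol Ifrg2r is copied as the labels write it, and no loss of an interferon receptor was read from it. The age of the mice, the content of the control vector and the number of cell clones were stated in none of the sources used here. Tumour cells and host cells are both murine, so their transcripts cannot be told apart on these arrays, nor can more cells of a type be told from more RNA per cell. Values are RMA expression values on a log2 scale, and all differences are Bptf KD minus control. Levels of different probe sets are not comparable with each other, so only differences between tumours are read.

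The library labelled control 2 stood apart before any member was considered. It correlated with the other controls at 0.934 and 0.939 across genes, while all other pairs within a group lay between 0.984 and 0.988. On the brightest Bptf probe set controls 1, 2 and 3 read 10.69, 9.77 and 10.59 and the Bptf KD tumours 9.60, 9.56 and 9.99, and on the remaining 3 Bptf probe sets the tumour labelled control 2 was the lowest of all 6. Over all 6 tumours Bptf differed by -0.63 (SE 0.27) on the brightest probe set and was not called (limma adjusted p = 0.371). The remaining probe sets gave -0.57, -0.80 and -0.17, and the groups overlapped on each of them. In the tumour labelled control 2 the level of Bptf therefore goes against the label. Its adipocyte markers averaged 10.8, beside 10.2 and 9.95 in controls 1 and 3 and 6.85 to 7.89 with the knockdown. Its fibroblast markers averaged 11.8, beside 11.6 and 11.8 in controls 1 and 3 and 10.5 to 10.7 with the knockdown. On these lists it read like the other controls, and whether the label is right was not tested. The results of the members are given with and without that tumour. The skeletal muscle list (10 of 10 markers measured) averaged 11.8 in that tumour, beside 6.18 and 8.98 in the other 2 controls and 6.04 to 9.46 with the knockdown, and its Actb 3-prime to 5-prime control difference was the largest at 1.23, beside 0.76 to 1.05 elsewhere. Krt8, a keratin of simple epithelia and a marker of the carcinoma cells, was at 13.92 to 14.15 in all 6 tumours. Other epithelial markers varied more, so Krt8 does not show an equal share of carcinoma cells. Krt18 read 12.60 in the tumour labelled control 2 and 13.41 to 13.82 in the others. Epcam ran from 11.02 in control 1 to 12.91 in Bptf KD 2, and Cldn4 from 8.24 in control 1 to 11.18 in Bptf KD 1.

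Promoter windows are shown for the 3 members with the largest group differences, Psmb9, Psmb8 and Psme1, so that the values below can be read beside the start regions of these genes. They come from RefSeq on GRCm38.p6 and run 5′ to 3′ on the strand of the gene, from 250 bases before its start to 50 bases after it. Capitals mark a match to 1 of 2 motifs of interferon-responsive genes, searched on both strands: GAAANNGAA, a pair of half-sites as bound by interferon regulatory factors, and TTCNNNGAA, the palindrome known as the gamma-activated sequence. The windows are chr17:34187281-34187580 on the minus strand for Psmb9, chr17:34197945-34198244 on the plus strand for Psmb8 and chr14:55578244-55578543 on the plus strand for Psme1.
Psmb9: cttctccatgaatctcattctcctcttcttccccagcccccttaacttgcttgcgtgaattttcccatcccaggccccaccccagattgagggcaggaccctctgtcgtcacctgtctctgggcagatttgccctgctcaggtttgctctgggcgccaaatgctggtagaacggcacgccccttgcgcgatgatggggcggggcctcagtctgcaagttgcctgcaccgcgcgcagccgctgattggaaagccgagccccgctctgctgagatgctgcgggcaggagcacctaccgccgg
Psmb8: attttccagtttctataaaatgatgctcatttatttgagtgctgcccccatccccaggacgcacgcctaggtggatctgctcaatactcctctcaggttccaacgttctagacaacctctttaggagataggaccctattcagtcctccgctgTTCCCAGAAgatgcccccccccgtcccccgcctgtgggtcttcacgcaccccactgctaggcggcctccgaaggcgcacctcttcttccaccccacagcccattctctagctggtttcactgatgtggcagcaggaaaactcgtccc
Psme1: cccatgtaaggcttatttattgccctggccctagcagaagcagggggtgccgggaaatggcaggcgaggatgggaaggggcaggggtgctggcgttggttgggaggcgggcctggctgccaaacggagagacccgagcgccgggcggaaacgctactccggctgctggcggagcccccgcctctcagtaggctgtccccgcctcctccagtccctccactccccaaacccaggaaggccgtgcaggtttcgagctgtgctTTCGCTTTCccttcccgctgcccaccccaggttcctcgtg
The Psmb8 window held 1 match to the palindrome, starting 97 bases before the gene start, and the Psme1 window held 1 match to the half-site pair, 10 bases after it. The Psmb9 window held neither, and 275 of its 300 bases are shared with the window of Tap1, the peptide transporter gene that is read in the opposite direction. A match is a description of the letters only. Of 32851 promoter windows of this length, 8.56% held the half-site pair and 8.30% the palindrome. Windows were found for 9 of the 10 members, all but Psmb7, and those of Psmb5, Psmb6, Psmb10, Psme2, Psme3 and Psme4 held neither motif.

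The inducible members Psmb9, Psmb8 and Psme1 had the largest differences of the set, and all 3 were positive, while those of the constitutive members ran from -0.26 for Psme4 to 0.30 for Psmb5. By limma, with Benjamini-Hochberg adjustment over all 9249 genes tested, 0 of the 9 measured members passed 0.05, where 0.811% of all genes did (0.151% higher and 0.660% lower). Before adjustment, limma gave a p under 0.05 for 3 members, all higher, and the same threshold was met by 7.65% of all genes on the higher side and 5.82% on the lower. In 4 members, Psmb8, Psmb9, Psmb10 and Psme1, every Bptf KD tumour lay above every control, beside 11.8% of all genes. The opposite order, found in 8.17% of all genes, occurred in 0 members. All 9 members passed the filter on dim probe sets, which removed those whose mean was in the lowest 30%, below 6.09. The median difference of all genes tested was 0.06.

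Psmb9, the inducible beta1 subunit, read 10.30, 10.38 and 9.78 on the log2 scale in controls 1, 2 and 3, and 11.17, 11.11 and 10.99 in Bptf KD 1, 2 and 3. The groups did not overlap, and control 3 was the lowest tumour. The means were 10.15 ± 0.33 and 11.09 ± 0.09 (SD, n = 3 each), a difference of 0.94 (SE 0.18) or 1.91-fold, which did not pass over all genes (limma adjusted p = 0.0837). Only 0.778% of the genes tested had a higher difference.

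Psmb8, the inducible beta5 subunit, read 12.0, 12.42 and 11.76 in the controls and 12.78, 12.73 and 12.81 in the Bptf KD tumours. The tumour labelled control 2 was the control closest to the Bptf KD tumours, and the latter varied little, with an SD of 0.04 against 0.33 among controls. The difference was 0.71 (SE 0.18), 1.64-fold, and did not pass (limma adjusted p = 0.161). A share of 1.62% of genes had a higher difference.

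Psme1, the alpha subunit of the inducible cap, read 12.02, 11.64 and 11.92 in the controls and 12.35, 12.60 and 12.58 in the Bptf KD tumours. Here the tumour labelled control 2 was the lowest of all, unlike for Psmb8 and Psmb9. The difference was 0.65 (SE 0.15), 1.57-fold (limma adjusted p = 0.126).

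Psmb10, the inducible beta2 subunit, had a smaller difference than the other inducible members. Its levels were 11.52, 11.12 and 11.36 in the controls and 11.77, 11.56 and 11.55 in the Bptf KD tumours, so that the lowest Bptf KD level lay just above the highest control level. The difference of 0.29 (SE 0.15) did not pass (limma adjusted p = 0.456), and 15.6% of genes tested had a higher one.

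**Figure D1:**
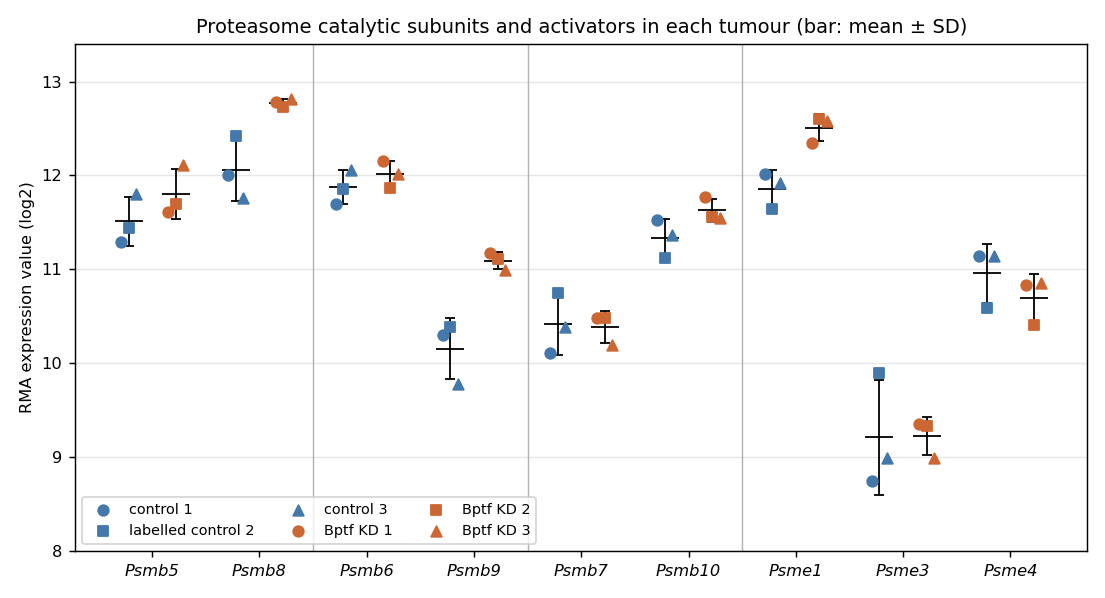
RMA expression values (log2, vertical axis) of the 9 measured members in each tumour, with each constitutive catalytic subunit beside its inducible partner and the activators at the right; blue marks are controls, orange marks Bptf KD tumours, squares in blue the tumour labelled control 2, and black bars the mean ± SD of 3 tumours. The orange marks lie above all blue marks for Psmb8, Psmb9, Psmb10 and Psme1, and the groups overlap for Psmb5, Psmb6, Psmb7, Psme3 and Psme4.

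The constitutive catalytic subunits overlapped between the groups. Psmb5 read 11.29, 11.44 and 11.80 in the controls and 11.61, 11.70 and 12.11 in Bptf KD tumours, a difference of 0.30 (SE 0.19; limma adjusted p = 0.588) that is as large as that of Psmb10. Psmb6 read 11.70, 11.86 and 12.06 against 12.15, 11.87 and 12.02, a difference of 0.14 (SE 0.14). Psmb7 read 10.11, 10.75 and 10.38 against 10.48, 10.48 and 10.19, a difference of -0.03 (SE 0.19) whose sign changed without the tumour labelled control 2 (0.14), without Bptf KD 3 (0.07) and with array weights (0.05). The adjusted limma p was 0.743 for Psmb6 and 0.969 for Psmb7.

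The noninducible activators did not separate the groups either. Psme3 read 8.74, 9.90 and 8.99 in the controls on its brightest probe set and 9.35, 9.33 and 8.99 in the Bptf KD tumours, so that the tumour labelled control 2 was the highest of all and control 1 the lowest. Its difference was 0.01 (SE 0.30), with -0.05 on a dimmer probe set and 0.09 on the last, which lay below the dim level; its sign changed in 5 of the 15 alternatives, and it was 0 with median centring. Psme4 read 11.14, 10.59 and 11.14 against 10.83, 10.41 and 10.85, a difference of -0.26 (SE 0.21; limma adjusted p = 0.662). Its other 2 probe sets gave -0.15 and -0.24, and on all 3 the tumour labelled control 2 was the lowest control. The remaining 7 members had 1 probe set each, so that no second probe set checks the inducible subunits.

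Subtracting the constitutive partner within each tumour asks whether the inducible form differed beyond its partner, and removes anything that scales a whole array. For the beta1 pair, Psmb9 minus Psmb6 was -1.40, -1.48 and -2.28 in controls 1, 2 and 3 and -0.98, -0.76 and -1.03 in the Bptf KD tumours. The groups did not overlap. The means differed by 0.80 (SE 0.29), a 1.74-fold shift of the balance towards Psmb9. The exact two-sided permutation test gave p = 0.1, the smallest that 3 tumours against 3 allow, and 0.4 after Benjamini-Hochberg adjustment over the 4 partner differences computed, so this design cannot bring it under 0.05. Without control 3 the difference was 0.52, and without the tumour labelled control 2 it was 0.92.

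For the beta5 pair, Psmb8 minus Psmb5 was 0.71, 0.98 and -0.04 in the controls and 1.17, 1.03 and 0.70 in the Bptf KD tumours. The groups overlapped, since Bptf KD 3, the tumour with the highest Psmb5, lay below control 1 and the tumour labelled control 2. The difference of 0.42 (SE 0.34; exact permutation p = 0.3, adjusted 0.4) was 0.12 without control 3 and 0.63 without the tumour labelled control 2. For the beta2 pair, Psmb10 minus Psmb7 was 1.41, 0.37 and 0.98 against 1.29, 1.08 and 1.36, a difference of 0.32 (SE 0.31; exact permutation p = 0.5, adjusted 0.5). It rested on the tumour labelled control 2, without which it was 0.05, and it was 0.57 without control 1. Psme1 minus Psme3 was 3.28, 1.74 and 2.93 against 3.0, 3.27 and 3.59, a difference of 0.64 (SE 0.50; exact permutation p = 0.3, adjusted 0.4), of which 0.18 was left without the tumour labelled control 2, with 0.95 without control 1.

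**Figure D2:**
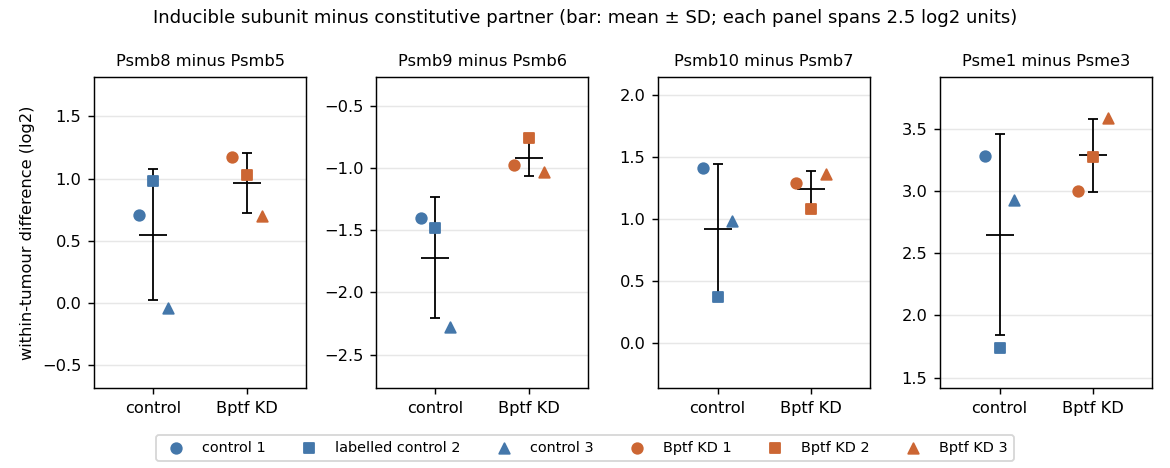
Within-tumour log2 difference of each inducible subunit from its constitutive partner, in 3 control (blue) and 3 Bptf KD (orange) tumours, with the mean ± SD as black bars; each panel spans the same number of log2 units but has its own offset. The Bptf KD tumours lie above all controls for Psmb9 minus Psmb6, at -0.76 to -1.03 against -1.40 to -2.28, and overlap with controls in the other 3 panels.

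The result of the beta5 pair depended on the partner chosen. With the mean of the 11 other core subunits subtracted in place of Psmb5, an alternative chosen after seeing the data, Psmb8 gave -0.84, -0.70 and -1.12 in the controls and -0.23, -0.31 and -0.05 in the Bptf KD tumours, which no longer overlapped (difference 0.69, exact permutation p = 0.1). On the same footing Psmb9 differed by 0.91 (exact permutation p = 0.1) and Psmb10 by 0.27 (exact permutation p = 0.2).

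The other parts of the proteasome differed little between the groups. All 11 alpha and structural beta subunits of the core were measured, and limma called 0 of them and gave 0 a p under 0.05 before adjustment. Their differences ran from -0.07 for Psma5 to 0.19 for Psma2, with a median of 0.02. Of the regulatory particle, which recognises and unfolds substrates, 17 of 18 listed genes were measured, with a median of 0.02, and limma again called 0 and gave 0 a p under 0.05 before adjustment. The scaffold subunit Psmd3 differed by 0.38, Psmd7 by 0.27 and the ATPase Psmc4 by -0.30. Assembly factors and the inhibitor Psmf1 (9 measured) had a median of 0.18, with 8 positive, 0 called by limma and 0 with a p under 0.05 before adjustment. That median was 0.088 without Bptf KD 2 and 0.095 without control 1. With array weights limma called 1 core gene and 1 gene of the assembly list, in a fit that called 1680 of all 9249 genes. Pomp, the maturation factor of the core, differed by 0.10, Psmg4 by 0.22, Psmd10 by 0.21 and Psmf1 by 0.24. The median over the core and that over the regulatory particle changed sign between alternatives, from -0.05 to 0.11 and from -0.05 to 0.05.

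The genes that control the inducible and the constitutive subunits were listed too. Of the interferon signalling genes upstream of the inducible subunits, 14 of 16 were measured. Their median was 0.24, 12 were positive, limma called 0, and 4 had a higher level with p under 0.05 before adjustment, beside the 7.65% of all genes. The kinase Jak2 read 10.77, 10.16 and 10.54 in the controls and 11.54, 10.99 and 11.25 in the Bptf KD tumours, without overlap (difference 0.77, limma adjusted p = 0.189). The transcription factor Irf9 differed by 0.48 and Irf8 by 0.50, while Irf1, the factor best known for inducing Psmb9, overlapped between the groups (difference 0.34, limma adjusted p = 0.418). In the Nfe2l1 list (7 of 8 measured, median 0.21), Nfe2l1, the transcription factor that raises constitutive subunit genes when proteasome activity falls, differed by 0.32 and its small partner Maff by 0.50, both with a limma p under 0.05 before adjustment, and 0 were called.

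Other genes induced by interferons were read beside the members. Of 14 measured genes of the interferon-gamma list, 12 were positive, with a median of 0.37, and limma called 0 and gave 3 of the positive genes a p under 0.05 before adjustment. Over all genes tested, 7.65% had such a p on the higher side and 5.82% on the lower, which also stands beside the counts below. The immunity-related GTPase Irgm2 differed by 0.64, Ifi47 by 0.64 and the chemokine Cxcl10 by 0.60, while Ciita, the master regulator of class II genes, and the checkpoint ligand Cd274 differed by -0.09 and 0.05. Of 17 measured type I interferon genes, 16 were positive, with a median of 0.47, and limma called 0, while 7 positive genes and 1 negative gene had p under 0.05 before adjustment. The smallest p-values were those of Usp18 (1.00), Bst2 (0.94) and Rtp4 (0.55), and the negative gene was Oas2 (-0.34). The medians of all 4 lists (signalling, interferon-gamma, type I and Nfe2l1) were positive in each of the 15 alternatives, at 0.19 to 0.33, 0.24 to 0.51, 0.37 to 0.58 and 0.17 to 0.32. Among these, the variance model and the replicate block cannot change a median. Of the class I supply and loading genes (11 measured, median 0.26, 3 positive ones with p under 0.05 before adjustment and 0 called by limma), Tap1 read 8.54, 8.30 and 8.0 in the controls and 8.81, 8.85 and 8.86 in the Bptf KD tumours, and Tapbpl differed by 0.47 and H2-K1 by 0.34. The median of the class I list depended on single controls, at 0.12 without the tumour labelled control 2 and 0.40 without control 1, and it was 0.16 without Bptf KD 3. The counts of 0 calls in these lists did not hold everywhere. Without the tumour labelled control 2, limma called 2 type I and 2 signalling genes, in a fit that called 412 of all 9249 genes. With the replicate block it called 1 type I gene, in a fit that called 107 of all genes. With array weights it called 11 type I, 7 interferon-gamma, 6 signalling, 3 class I and 2 Nfe2l1 genes, in a fit that called 1680 of all 9249 genes.

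**Figure D3:**
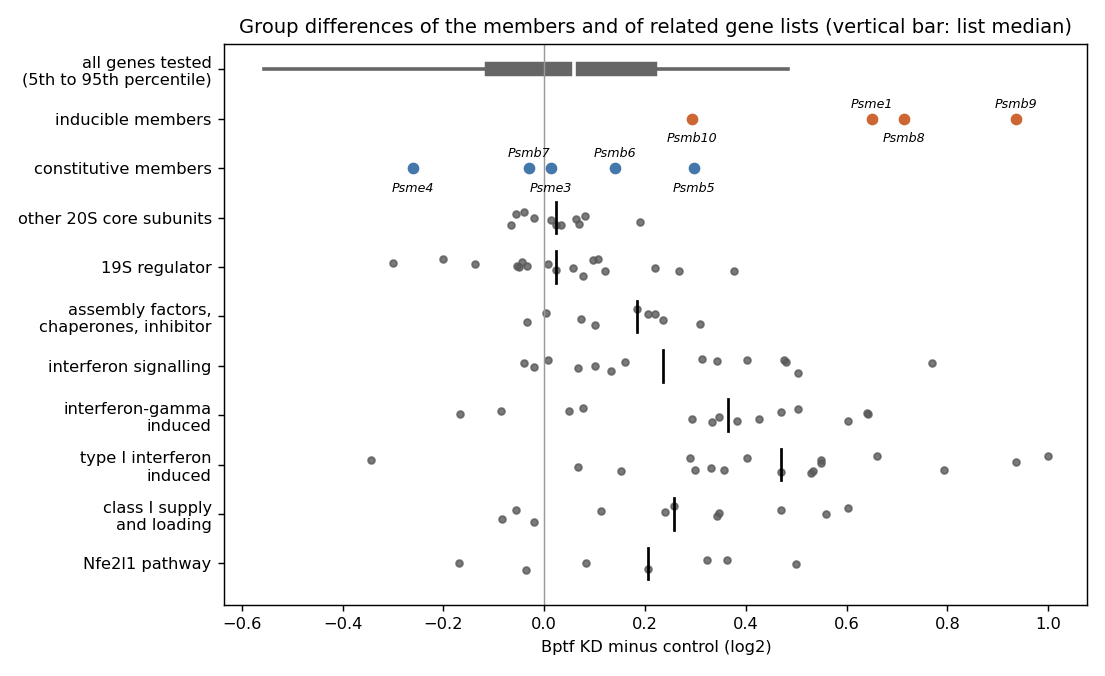
Bptf KD minus control (log2, horizontal axis) for the 4 inducible members (orange), the 5 constitutive members (blue) and every measured gene of 8 related lists (grey, with the list median as a black bar), under the spread of all 9249 genes tested (thick line from -0.10 to 0.21, the middle 50% of genes, and thin line from -0.56 to 0.48, the middle 90%). Psmb8, Psmb9 and Psme1 lie to the right of the thin line, and the core and regulatory particle lists centre on 0.02.

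The genes whose pattern over the 6 tumours was most like that of Psmb9 were Usp18, which removes the ubiquitin-like Isg15 from proteins, Pilrb1, a myeloid paired receptor, Ctla2a, a cysteine protease inhibitor, Hs3st1, a heparan sulfate sulfotransferase, and Slc15a3, a lysosomal peptide transporter. Pearson's r with Psmb9 was 0.986 to 0.990 for these 5 among 4137 genes with an SD of at least 0.25, given as a description, since the points share the group difference. Psmb8 stood at rank 39 (r = 0.957) and Tap1 at rank 47 (r = 0.951), with Psme1 at rank 356 (r = 0.786). Tap2, the second subunit of the transporter, lay at rank 1206 (r = 0.441), although Psmb9, Tap1, Psmb8 and Tap2 are neighbours on chromosome 17. Its group difference was 0.60 with overlap (limma adjusted p = 0.442), beside 0.56 without overlap for Tap1 (limma adjusted p = 0.204). Among the other members, Psmb7 and Psme3 shared a pattern (r = 0.961), both with their highest level in the tumour labelled control 2.

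Markers of other cell types differed between the groups, and their part in these differences was not tested. Macrophage and monocyte markers, whose cells carry inducible subunits at rest, were all measured (14 of 14): their mean ran from 11.8 to 12.1 among controls and from 12.0 to 12.2 among Bptf KD tumours. C1qa, C1qb, C1qc, Lyz2 and Aif1 were higher without overlap, by 0.26 to 0.40, Mrc1 was lower without overlap by -0.75, and the pan-leukocyte gene Ptprc differed by -0.02. Limma called 0 of these 14 (7 with array weights). Before adjustment 3 positive genes and 1 negative gene had a limma p under 0.05, beside 7.65% and 5.82% of all genes. Dendritic cell markers (7 of 9 measured) had list means of 8.99 to 9.27 and 8.88 to 9.35, with Xcr1 below the dim level. Of these markers 3 were positive and 4 negative, and Flt3 was lower without overlap (-0.59, limma adjusted p = 0.214). Neutrophil markers (4 of 10) had means of 8.16 to 9.0 and 8.67 to 9.06, with Cxcr2, Ngp, Ltf and Mmp8 below the dim level. Of the T, B and NK cell markers 4 of 13 were above the dim level, at list means of 6.59 to 6.79 and 6.48 to 6.57, and Cd3g, Cd3d, Ms4a1, Cd79a, Cd79b, Ncr1 and Gzma were below it. Epithelial markers (9 of 9) had means of 10.1 to 11.1 in controls and 11.3 in each Bptf KD tumour, fibroblast markers (11 of 11) of 11.6 to 11.8 and 10.5 to 10.7, and adipocyte markers (9 of 11) of 9.95 to 10.8 and 6.85 to 7.89. Endothelial markers (7 of 7) had means of 7.21 to 7.72 and 7.31 to 7.40, and keratinocyte markers (4 of 8) of 7.17 to 10.3 and 7.38 to 7.56. The keratinocyte mean of 10.3 was that of the tumour labelled control 2, beside 7.17 and 7.40 in controls 1 and 3. The median difference of that list was -0.81, and 0.19 without that tumour. Limma called 6 adipocyte, 5 fibroblast and 1 endothelial marker lower, beside 0.660% of all genes. It called 0 of the epithelial markers, 3 of which were higher with p under 0.05 before adjustment, beside 7.65% of all genes. The count of epithelial calls was 1 with array weights, with the replicate block and without control 1. The counts of calls changed with the tumours kept, as did those over all genes. The fibroblast calls became 0 without control 3 or any one Bptf KD tumour and 1 without control 1, and the adipocyte calls 1, 3 and 0 without Bptf KD 1, 2 and 3. Without the tumour labelled control 2 they were 6 fibroblast and 8 adipocyte calls. Each such fit has fewer tumours, so a lost call does not show that the tumour left out made the difference. The endothelial call was lost without control 3 or any one Bptf KD tumour, and with the 50% filter Tek was not tested. The list medians of the fibroblast and adipocyte markers stayed negative in each of the 15 alternatives, at -1.36 to -0.86 and -3.06 to -2.62, though the variance model and the replicate block cannot change them.

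The calls of the inducible members depended on which controls were kept and on their weights. Without the tumour labelled control 2, Psmb8 differed by 0.89 and Psmb9 by 1.05, and both passed over all genes (limma adjusted p = 0.0181 and 0.0267, range over all alternatives 0.00226 to 0.474 and 0.00237 to 0.299), while Psme1 at 0.54 did not pass. That tumour had the highest control level of both genes, and its removal took the number of genes called from 75 to 412, so these p-values are not independent evidence. With array weights, which gave the tumour labelled control 2 the lowest weight (0.150) in a fit that limma reported as not converged, Psmb8, Psmb9 and Psme1 passed, at 0.96, 1.23 and 0.55 (limma adjusted p = 0.00226, 0.00237 and 0.0136, the last within a range of 0.0136 to 0.439 over all alternatives). Psmb8, Psmb9, Psmb10 and Psme1 had positive differences in each of the 15 alternatives, at 0.56 to 0.96, 0.75 to 1.23, 0.19 to 0.39 and 0.54 to 0.73. For these genes the filters, the probe set rules, the variance model and the replicate block cannot change the difference. Only the scaling, the array weights and the tumours kept could move it.

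**Figure D4:**
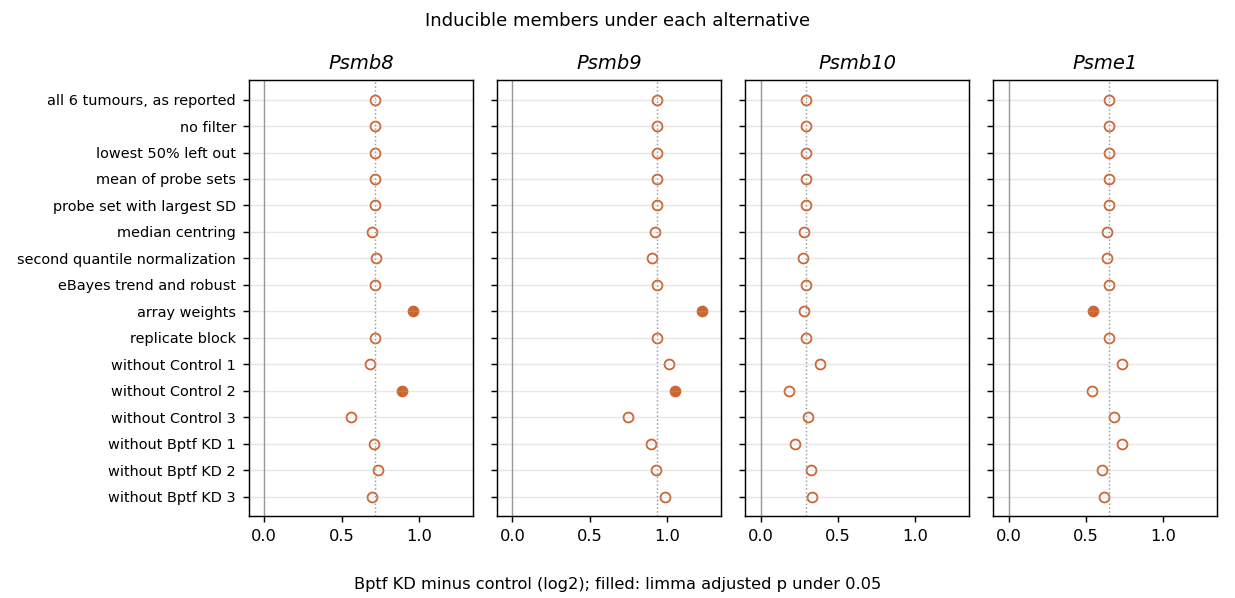
Bptf KD minus control (log2, horizontal axes) of the 4 inducible members with all 6 tumours and under each of 15 alternatives (rows); filled circles passed a limma adjusted p of 0.05 over all genes, and the dotted line marks the value as reported. Filled circles appear without the tumour labelled control 2 for Psmb8 and Psmb9, and with array weights for Psmb8, Psmb9 and Psme1.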

How the data were processed

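The deposited table holds log2 expression values that the authors made with RMA, which corrects background, normalises by quantiles and summarises probes, per the submitters' processing notes, with no version or genome build given. The log base was taken as 2 from the range of 2.98 to 15.17. Of the probe sets, 20380 were annotated to 1 gene by GEO's platform table and 691 to several, 1555 were unnamed, and 64 were controls. Symbols were matched by Entrez identifier to RefSeq (GRCm38.p6), and 0 changed. The probe set with the highest mean stood for its gene, and the lowest 30% of probe sets by mean were left out, which left 9249 genes. Groups were compared with limma 3.58.1 in R 4.3.3 (lmFit, eBayes, no covariate), with Benjamini-Hochberg adjustment over all genes and a threshold of 0.05. Single differences between partners were compared by an exact two-sided permutation test. The planned difference of Psme2 from Psme3 was not computed. The fit was checked on simulated data.

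No source used here says that each tumour had a mouse to itself, so p-values measure the spread between these samples. The number of arrays limits the precision, and RMA values carry no detection call. The members and gene lists were chosen with earlier results of these data known. Named genes are all members, Bptf, up to 3 genes of each list with the smallest limma p, and the 5 genes most like Psmb9. Other list genes were chosen after their values were seen: Psma5, Irf1, Pomp, Ciita, Cd274, Oas2, Tap2 and the markers. Alternatives changed the filter (none, or the lowest 50%), the probe set rule (mean, or largest SD), the scaling (median centring, or quantile normalisation again), the variance model (eBayes with trend and robust estimation), the weighting of arrays, the use of replicate numbers as a block, and which tumours were kept.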

Additional observations from a re-analysis of the deposited data

How the results depend on the processing

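Of 135 values of single members over the 15 alternatives, 121 kept their direction and their side of the threshold, 1 was 0 (Psme3 with median centring), 5 newly passed it (given above) and 8 reversed. Part of the agreement in direction was fixed in advance. The filters, the variance model and the replicate block cannot change a difference, and the probe set rules can change only those of Psme3 and Psme4. Psmb7 reversed with array weights (0.048), without the tumour labelled control 2 (0.14) and without Bptf KD 3 (0.07), within a range of -0.18 to 0.14 over tumours left out. Psme3 reversed with a second quantile normalisation (-0.021) and without control 1 (-0.22), control 3 (-0.10), Bptf KD 1 (-0.05) or Bptf KD 2 (-0.04), within a range of -0.22 to 0.36. The 47 values of the partner differences kept their direction. They include the values with the mean of the other core subunits as partner. None had a permutation p under 0.1, and none could, since the tests with these tumours cannot give a smaller one. Part of the agreement in direction was fixed in advance here too. Median centring and the replicate block cannot change such a difference, and the probe set rules can change only Psme1 minus Psme3. Leaving out each tumour gave 0.12 to 0.63 for Psmb8 minus Psmb5, 0.52 to 0.96 for Psmb9 minus Psmb6, 0.05 to 0.57 for Psmb10 minus Psmb7 and 0.18 to 0.95 for Psme1 minus Psme3. The count of members called was 0 in 13 alternatives, 2 without the tumour labelled control 2 (range 0 to 2 over tumours left out) and 3 with array weights. Over all genes the 75 calls became 42 with the 50% filter, 1680 with array weights, and 0 to 412 when each tumour was left out: 412 without the tumour labelled control 2, 10 without control 3, and 2, 6 and 0 without Bptf KD 1, 2 and 3. The cause was not tested.

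Same-numbered tumours of the groups had correlated deviations of 0.01, 0.28 and 0.37 for numbers 1, 2 and 3. The first is not over 0.1, and the labels do not say that a number marks a shared batch, so the numbers were not taken to pair tumours; whether they mark one was not tested. With the replicate block, Psmb9 had a limma adjusted p of 0.0629, Psmb8 one of 0.159 and Psme1 one of 0.160. The partner differences were tested by exact sign changes within numbers, with a smallest p of 0.25. Their values of 0.42, 0.80, 0.32 and 0.64 cannot change with the block, since each number occurs once in each group. With 1 probe set for each inducible subunit, an error of that probe set cannot be seen in these data.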
